A study of Mus musculus with 6 samples.

Results

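The dual-specificity phosphatases (DUSPs) and the Sprouty and Spred proteins are brakes on mitogen-activated protein kinase (MAPK) signaling, and many of their genes are transcribed when the pathway is active. The 10 genes described here are *Dusp1*, *Dusp2*, *Dusp4*, *Dusp5*, *Dusp6*, *Dusp10*, *Spry1*, *Spry2*, *Spred1*, and *Spred2*. They were chosen by symbol as MAPK feedback genes and were looked up among the 26264 genes of a table of normalized counts from hematopoietic stem cells (HSCs). All 10 were in the table and all 10 passed a filter on low values (mean normalized count of at least 10), which left 17404 genes for testing.

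The study asked how loss of the transcription factor IRF1 alters HSCs. Bulk RNA-seq was made from HSCs sorted by surface markers from untreated female mice aged 8 weeks, 3 of them *Irf1-/-* (B6.129S2-Irf1 tm1Mak/J, deficient in every cell of the body and not in HSCs alone) and 3 WT (C57Bl/6). Each mouse gave 1 library, and libraries are named by the replicate numbers 2, 3 and 4 in both genotypes. Since each library is a bulk sample, fewer cells of a type and less RNA per cell cannot be told apart.

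Reads counted on genes numbered 43138521, 57281017, and 45129929 in *Irf1-/-* replicates 2, 3, and 4 and 59658080, 45332573, and 43267486 in the corresponding WT replicates. The values used are these counts divided by 1 size factor per library, called normalized counts below. *Irf1* itself had 9267, 9524, and 9287 normalized counts in *Irf1-/-* HSCs and 10122, 11120, and 12057.5 in WT HSCs. The *Irf1-/-* libraries lay below the WT libraries, with a log2 fold change of −0.24 (SE 0.088, limma adjusted *P* = 0.170). A count over the whole gene does not show which exons the reads come from, so it does not check the targeted allele, and genotypes are given as labelled.

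All 10 HSC markers examined were detected, among them *Kit* (between 77902 and 88715 normalized counts), *Tek*, *Procr*, and *Slamf1*. The hemoglobin genes *Hba-a1* and *Hbb-bs* were at 0 in all 6 libraries, and *Cd3e* and *Cd8a* did not exceed 7.89 normalized counts in any library. Other lymphoid transcripts were present, with between 2174 and 3209 normalized counts of *Nkg7*, between 116.9 and 340.5 of *Cd4*, and between 2521 and 2952 of *Cd79b*. One library stood apart in neutrophil genes. WT replicate 4 had 1033 normalized counts of *S100a8* and 1246 of *S100a9*, against at most 110.04 and 130.8 in the other 5 libraries, so calls of the genes and lists below that were gained or lost without this library are given with them.

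MAPK cascades carry signals from growth factor and cytokine receptors through RAS, RAF and MEK to ERK, and from stress and cytokines to JNK and p38. DUSPs of the MAP kinase phosphatase class remove phosphate from both the threonine and the tyrosine of the activation loop of these kinases, whereas Sprouty and Spred proteins act upstream, at the level of receptors, RAS and RAF. Because several of these genes are themselves switched on by ERK, their transcripts are widely used to read the activity of the pathway, which in HSCs runs downstream of KIT and related receptors.

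For the comparison of genotypes, limma was fitted to log2(normalized count + 1), and *P* values were adjusted over all 17404 genes. The call threshold was 0.05 for the adjusted *P* and, in either direction, 0.58 for the log2 fold change. Fold changes are *Irf1-/-* over WT and the 1 added to each value draws those of genes with few counts toward 0. Of the 10 genes, 1 (*Dusp4*) was called higher in *Irf1-/-* HSCs, where 0.96% of all tested genes were, and 0 were called lower, where 0.954% of all tested genes were. edgeR and DESeq2, run on recovered reads, also called 1 higher and 0 lower. DESeq2 gave *Spry2* no adjusted *P*, so it could not call that gene. At an unadjusted *P* under 0.05 there were 2 of the 10, *Dusp4* and *Dusp5*, both with the higher mean in *Irf1-/-* HSCs, where 16.5% of all tested genes passed that level in limma. These shares of all tested genes are also the background of the counts given for other lists below. All 3 *Irf1-/-* libraries lay above all 3 WT libraries for 3 of the 10 genes (*Dusp4*, *Dusp5*, and *Spry1*), as they did for 10.6% of all tested genes, and below them for 0, against 9.27% of all tested genes. The median log2 fold change of the 10 was 0.11, compared to −0.00276 over all tested genes, and removal of *Irf1-/-* replicate 4 lowered it to 0.057, removal of WT replicate 2 to 0.066. Of the 10 fold changes, 7 were above 0 and 3 below (9 and 1 under quantile normalization, in which the near-zero values of *Dusp1* and *Spred1* turned).

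**Figure D1:**
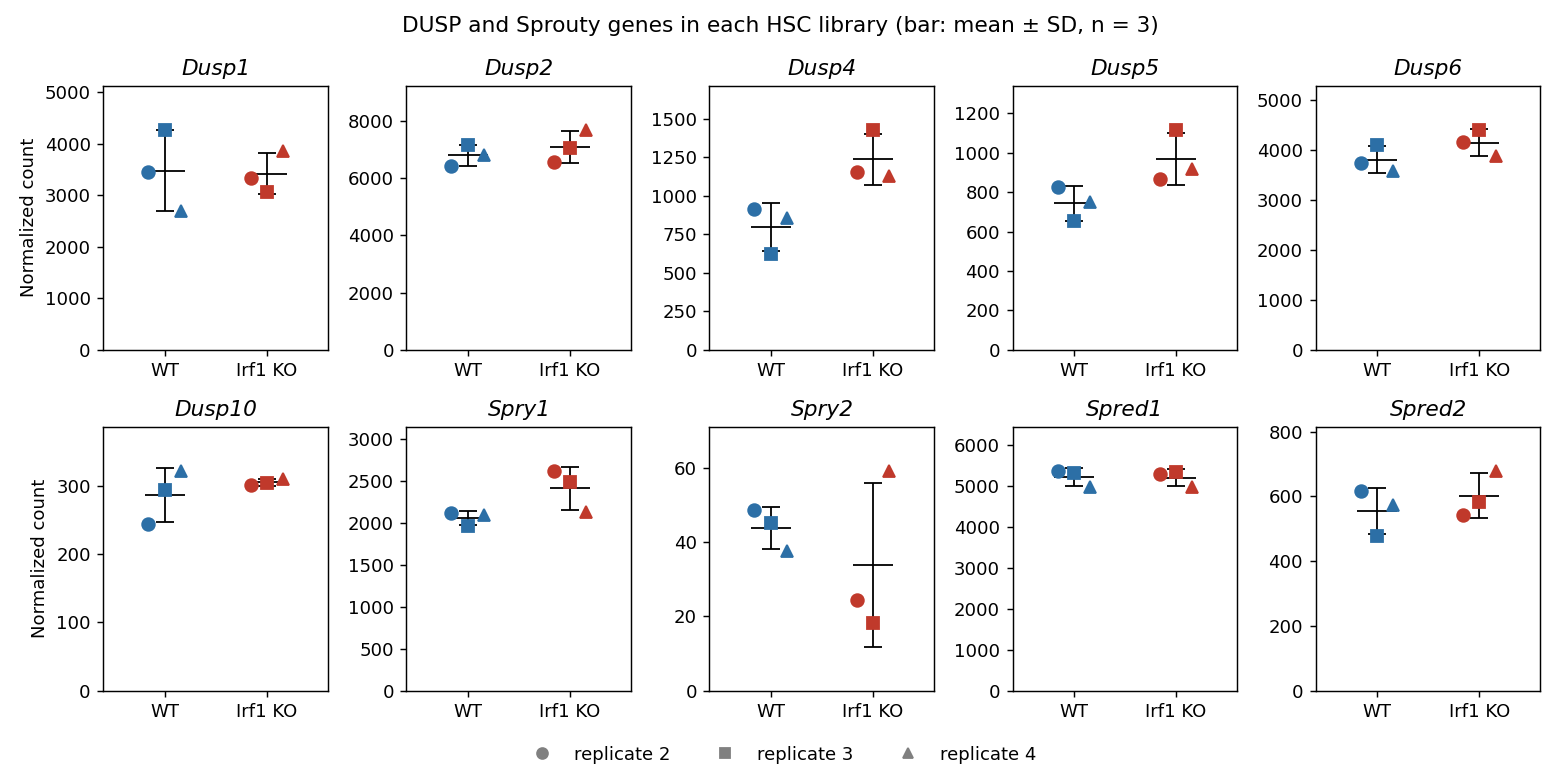
Normalized counts of the 10 DUSP and Sprouty genes in each library, with 1 panel per gene, a linear axis from 0, and symbols for the replicate number (blue, WT; red, *Irf1-/-*; bars, mean ± SD, n = 3). The *Irf1-/-* points lie above all WT points for *Dusp4*, *Dusp5*, and *Spry1*, and the genotypes overlap for the other 7 genes.

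*Dusp1*, *Dusp2*, *Dusp4*, and *Dusp5* encode the inducible phosphatases of the nucleus. DUSP4 acts on ERK and JNK in the nucleus and is transcribed in response to ERK. In *Irf1-/-* HSCs, *Dusp4* had 1152 (replicate 2), 1427 (replicate 3), and 1128 (replicate 4) normalized counts, and in WT HSCs it had 913.4, 622.1, and 853.1. *Irf1-/-* replicate 3 was the highest and WT replicate 3 the lowest of the 6 libraries, and the genotypes did not overlap. The means were 1236 ± 166 in *Irf1-/-* and 796 ± 154 in WT HSCs (SD, n = 3). *Dusp4* thus rose 1.56-fold, with a log2 fold change of 0.64 (95% interval 0.30 to 0.99, limma adjusted *P* = 0.0425), and was higher in 3 of 3 *Irf1-/-* libraries than in any WT library. Between 552 and 1651 reads per library stood behind these values.

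The call of *Dusp4* lay close to the threshold. On recovered reads its adjusted *P* was 0.0411 with edgeR and 0.0030 with DESeq2, at log2 fold changes of 0.63 with both. Without the intensity trend in limma's prior variance the fold change of *Dusp4* was the same, but the adjusted *P* was 0.306. Leaving out 1 library ended the call of *Dusp4* in 4 of 6 cases, namely without *Irf1-/-* replicate 2 (log2 fold change 0.69, adjusted *P* = 0.103), replicate 3 (0.54, 0.127), or replicate 4 (0.71, 0.0868), and without WT replicate 3 (0.48, 0.166). Removal of WT replicate 2 (0.75, 0.0368) or of WT replicate 4, the library with neutrophil transcripts (0.70, 0.0339), left *Dusp4* called. The fold change of *Dusp4* was above 0 in every alternative that was run, between 0.48 and 0.75, with adjusted *P* values between 0.0030 and 0.306.

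DUSP5 is a nuclear phosphatase with specificity for ERK and anchors it there. *Dusp5* had 866.7, 1116, and 915.6 normalized counts in *Irf1-/-* replicates 2, 3, and 4 and 826.2, 651.4, and 749.8 in the corresponding WT replicates. The order resembled that of *Dusp4*, with *Irf1-/-* replicate 3 highest and WT replicate 3 lowest, and the genotypes were separated by the gap between *Irf1-/-* replicate 2 and WT replicate 2. *Dusp5* differed by 0.38 on the log2 scale (95% interval 0.063 to 0.69), which was not called (limma adjusted *P* = 0.202). Nor was *Dusp5* called by edgeR (adjusted *P* = 0.185) or DESeq2 (adjusted *P* = 0.103).

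DUSP1, the product of a classic immediate-early gene, acts on p38, JNK, and ERK. *Dusp1* had 3339, 3069, and 3849 normalized counts in *Irf1-/-* HSCs and 3455, 4266, and 2700 in WT HSCs (replicates 2, 3, and 4). Both the highest and the lowest library were WT, and the *Irf1-/-* values lay between them. The log2 fold change of *Dusp1* was −0.0044 (95% interval −0.31 to 0.30, limma adjusted *P* = 0.994). The coefficient of variation among WT mice was 22.5%, the widest of the 10 genes in WT HSCs, compared to 11.6% among *Irf1-/-* mice. In each genotype the library lowest in *Dusp1* (*Irf1-/-* replicate 3 and WT replicate 4) was also the lowest in 5 of 21 tested immediate-early genes, *Fos*, *Fosb*, *Jun*, *Fosl2*, and *Zfp36*, named after their values were seen. The share of all tested genes with this order is not given here. The other 16 did not share it, *Egr1*, *Junb*, *Ier2*, and *Myc* among them. *Fos*, for instance, had 604, 133, and 782 normalized counts in *Irf1-/-* replicates 2, 3, and 4 and 422, 379, and 57.0 in WT replicates 2, 3, and 4. These genes are induced rapidly by handling and stress as well as by growth factors, and the part of either in the spread of *Dusp1* was not tested.

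DUSP2 is a nuclear phosphatase known from activated blood cells. *Dusp2* ranged from 6418 to 7162 normalized counts in WT HSCs and from 6568 to 7684 in *Irf1-/-* HSCs. The genotypes overlapped over most of their range, and the log2 fold change was 0.062 (95% interval −0.13 to 0.26, limma adjusted *P* = 0.820), so a change as large as that of *Dusp4* lay outside the interval of *Dusp2*.

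DUSP6 is the ERK-specific phosphatase of the cytoplasm and one of the most used transcript readouts of ERK activity. *Dusp6* had 4165, 4411, and 3879 normalized counts in *Irf1-/-* replicates 2, 3, and 4 and 3739, 4116, and 3582 in WT replicates 2, 3, and 4. WT replicate 3 lay above *Irf1-/-* replicate 4, so the genotypes overlapped. *Dusp6* thus gave a log2 fold change of 0.12 (95% interval −0.078 to 0.33, limma adjusted *P* = 0.594).

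DUSP10 prefers JNK and p38 over ERK. *Dusp10* was between 243.6 and 321.7 normalized counts in WT HSCs and between 300.6 and 310.4 in *Irf1-/-* HSCs. The *Irf1-/-* libraries fell within the range of the WT libraries and were the closer together, with a coefficient of variation of 1.62% compared to 13.8%. Its log2 fold change was 0.10 (95% interval −0.32 to 0.52, limma adjusted *P* = 0.875).

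Sprouty proteins are induced by growth factor signaling and dampen the path from receptors to RAS and ERK. *Spry1* had 2624, 2486, and 2133 normalized counts in *Irf1-/-* replicates 2, 3, and 4, whereas WT replicates 2, 3, and 4 had 2117, 1970, and 2102. *Irf1-/-* replicate 4 lay just above the highest WT library (WT replicate 2), and the other 2 *Irf1-/-* libraries lay further up. The log2 fold change of *Spry1* was 0.22 (95% interval −0.0051 to 0.45, limma adjusted *P* = 0.317), which was not called. Its adjusted *P* was 0.289 with edgeR and 0.222 with DESeq2.

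*Spry2* was the scarcest of the 10 transcripts, with between 21 and 59 reads per library. Its normalized counts were 24.5, 18.1, and 59.2 in *Irf1-/-* replicates 2, 3, and 4 and 48.6, 45.1, and 37.7 in WT replicates 2, 3, and 4. The *Irf1-/-* libraries held both the lowest values and the highest value, so the genotypes overlapped. *Spry2* gave a log2 fold change of −0.53, with a 95% interval from −1.64 to 0.58 (limma adjusted *P* = 0.698). The coefficient of variation of *Spry2* was 65.0% among *Irf1-/-* mice and 12.7% among WT mice. Its log2 fold change moved with single mice, to −1.01 without *Irf1-/-* replicate 4 and −0.18 without *Irf1-/-* replicate 3, and edgeR and DESeq2 both gave −0.37.

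Spred proteins hold the RAS-GTPase activating protein neurofibromin at the membrane and thereby limit RAS. *Spred1* showed the narrowest interval of the 10 genes. It ranged from 4986 to 5379 normalized counts in WT HSCs and from 4984 to 5352 in *Irf1-/-* HSCs, that is, over nearly the same span in both genotypes. On the log2 scale *Spred1* differed by −0.0048 (95% interval −0.19 to 0.18, limma adjusted *P* = 0.988). *Spred2* ranged from 477.8 to 615.5 normalized counts in WT HSCs and from 543.7 to 678.9 in *Irf1-/-* HSCs. These ranges overlapped, and the log2 fold change of *Spred2* was 0.12 (95% interval −0.23 to 0.46, limma adjusted *P* = 0.806). It moved with single mice, to 0.013 without WT replicate 3, 0.027 without *Irf1-/-* replicate 4, and 0.195 without WT replicate 2.

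**Figure D2:**
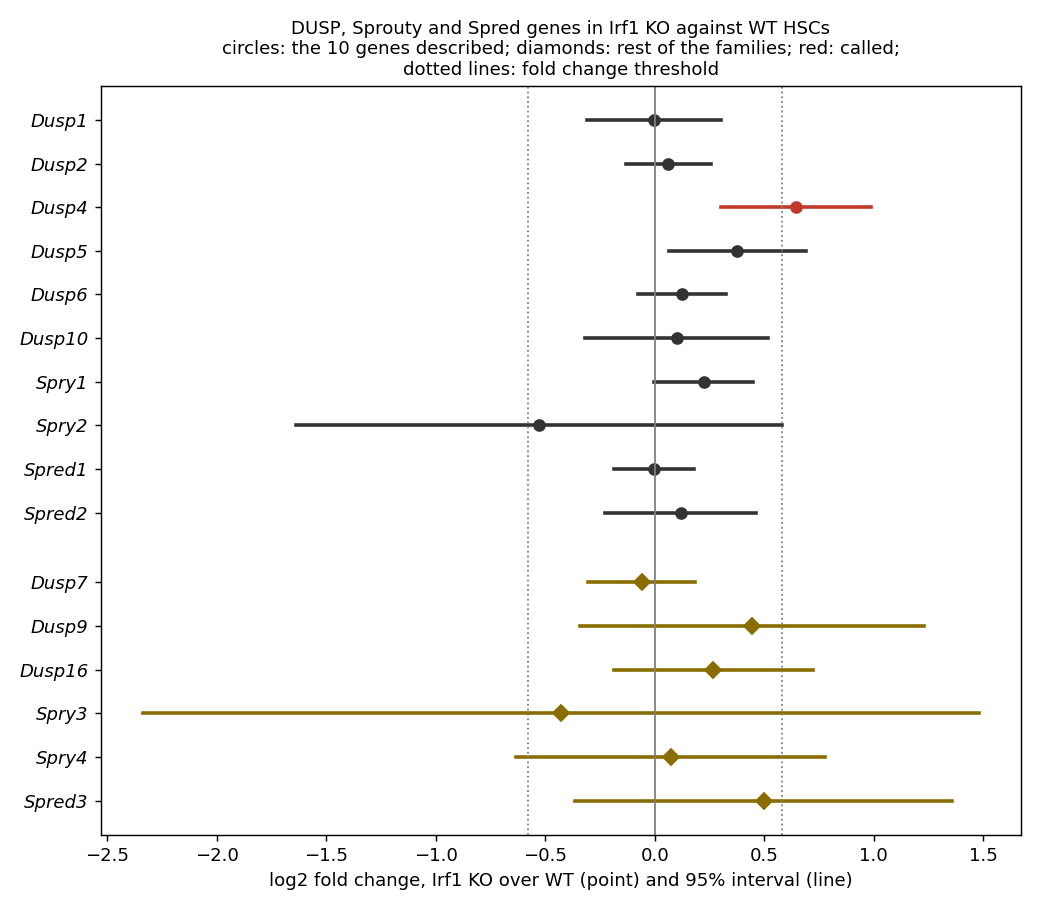
Log2 fold changes of *Irf1-/-* over WT HSCs (points) with 95% intervals from limma (lines) for the 10 genes described (circles) and the 6 tested genes of the same families outside them (diamonds). The interval of *Dusp4* (0.30 to 0.99, red) is the one of a called gene, and the widest intervals belong to the scarce transcripts *Spry3* and *Spry2*.

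Levels of different genes were compared per kb of the longest coding transcript in the GENCODE vM1 annotation. In WT HSCs, *Dusp2* was the most abundant of the 10 on this scale, with 4202 ± 230 normalized counts per kb (SD, n = 3), followed by *Dusp1* with 1746 ± 393 and *Dusp6* with 1364 ± 98.0. *Dusp2* was above the others in every WT library, whereas the ranges of *Dusp1* and *Dusp6* overlapped. Next came *Spred1* at 869.6 ± 35.5 and *Spry1* at 743.9 ± 29.1 normalized counts per kb, which did not overlap. *Dusp5* (300.2 ± 35.4) and *Dusp4* (290.6 ± 56.1) formed a pair with overlapping ranges, as did *Spred2* (124.9 ± 15.9) and *Dusp10* (102.6 ± 14.2). *Spry2* was last at 20.99 ± 2.67 normalized counts per kb. Among the 15412 tested genes with a transcript length (88.6% of those tested), *Dusp2* stood at percentile 93.2, *Dusp4* at 46.0, and *Spry2* at 20.2 of the WT level per kb. In *Irf1-/-* HSCs the mean level per kb of *Dusp4* (451.0 ± 60.5) was above that of *Dusp5* (390.6 ± 53.3), with overlapping ranges, and those of *Spry1* (870.6 ± 91.2) and *Spred1* (866.6 ± 33.3) were nearly equal.

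Across the 6 libraries the 10 genes did not move as a block. The median Pearson correlation over the 45 pairs of genes, on the log2 scale, was 0.12. It was above 0.7 for 3 pairs, *Dusp4* with *Dusp5* (0.971), *Dusp4* with *Spry1* (0.804), and *Dusp5* with *Spry1* (0.702), which are the 3 genes whose genotypes did not overlap. After subtraction of the genotype means, these correlations were 0.929, 0.464, and 0.262. *Dusp4* and *Dusp5* thus followed each other among mice of the same genotype, whereas *Spry1* followed them less. *Spry1* and *Spry2* ran in opposite directions (−0.822), although *Spry2* rests on few reads. After the same subtraction, *Dusp2* with *Spry1* (−0.928), *Spry1* with *Spry2* (−0.817), and *Dusp1* with *Dusp4* (−0.759) ran in opposite directions. *Dusp6* ran with *Spred1* (0.788) and against *Spred2* (−0.782). These correlations are descriptions over 6 libraries, which differ in genotype and depth, and were not tested.

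The mean log2 deviation of the 10 genes from their averages over all libraries was −0.010, 0.027, and 0.15 in *Irf1-/-* replicates 2, 3, and 4 and −0.010, −0.071, and −0.085 in WT replicates 2, 3, and 4. The genotypes met at replicate 2, and the highest value, in *Irf1-/-* replicate 4, included the deviation of 0.70 of *Spry2*. The 5 genes outside the group whose log2 values correlated best with this mean, among 12060 genes with a mean of at least 100 normalized counts, were *Ube2b* (Pearson correlation 0.993), *Bloc1s5*, *Zfp60*, *Kcnk3*, and *Smpd5* (0.974), over 6 libraries. Those closest to *Dusp4* were *Aatk* (0.995), *Zfp54*, *Fap*, *Coro7*, and *Emc9* (0.988). None of these 10 genes was called by limma, and the adjusted *P* of *Aatk* was 0.0921 at a log2 fold change of 0.82.

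The remaining MAP kinase phosphatases and Sprouty and Spred genes showed no call. Of 7 such genes, 6 passed the filter on low values and *Dusp8*, with at most 14.7 normalized counts in a library, did not. None was called by limma, edgeR, or DESeq2, though DESeq2 gave *Spry3* no adjusted *P* and so could not call it. In limma 0 had an unadjusted *P* under 0.05. *Dusp16*, which acts on JNK and p38, had 269.7, 269.6, and 254.3 normalized counts in *Irf1-/-* replicates 2, 3, and 4 and 230.4, 185.9, and 247.4 in WT replicates 2, 3, and 4. The genotypes of *Dusp16* did not overlap, and its log2 fold change was 0.27 (SE 0.21, limma adjusted *P* = 0.615). The other log2 fold changes were 0.44 for *Dusp9*, 0.50 for *Spred3*, 0.073 for *Spry4*, −0.061 for *Dusp7*, and −0.43 for *Spry3*, all with overlapping genotypes. The most abundant of these in normalized counts was *Dusp7*, an ERK phosphatase of the cytoplasm related to *Dusp6*, which ranged from 1612 to 2057 over the 6 libraries.

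Atypical DUSPs lack the kinase interaction motif of the MAP kinase phosphatases. Of 16 listed, 12 were tested, *Dusp21* was at 0 in all 6 libraries, and limma and edgeR called 0, with 3 of the 12 at an unadjusted *P* under 0.05, against the 16.5% of all tested genes. Their median log2 fold change was 0.027 (−0.043 under quantile normalization, −0.0040 under median centring, and between −0.13 and 0.053 with 1 library left out, the lowest without WT replicate 3 and the highest without WT replicate 4). The values of the most abundant were 0.035 for *Dusp11* and 0.12 for *Dusp12*. Singled out after its values were seen, *Dusp26* had 166.3, 108.9, and 178.6 normalized counts in *Irf1-/-* replicates 2, 3, and 4 and 74.1, 46.2, and 91.4 in WT replicates 2, 3, and 4. Its log2 fold change was 1.11 (SE 0.35, limma adjusted *P* = 0.111), and DESeq2 called it (adjusted *P* = 0.0253). *Dusp3*, which was chosen in the same way and dephosphorylates ERK and JNK, had a log2 fold change of −0.40 (SE 0.14, limma adjusted *P* = 0.152), with all *Irf1-/-* libraries below the WT libraries.

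Upstream of the feedback genes, 3 of 10 receptor genes were called higher in *Irf1-/-* HSCs (0.96% of all tested genes) and 4 had an unadjusted *P* under 0.05 (16.5% of all tested genes). The median of the list was 0.21 on the log2 scale. *Csf2rb*, the shared β chain of cytokine receptors, had a log2 fold change of 0.81 (SE 0.15, limma adjusted *P* = 0.0114), which did not pass without *Irf1-/-* replicate 4 (adjusted *P* = 0.0535). *Flt3* had 3442, 4476, and 3460 normalized counts in *Irf1-/-* replicates 2, 3, and 4 and 2656, 1730, and 2865 in WT replicates 2, 3, and 4. As with *Dusp4* and *Dusp5*, *Irf1-/-* replicate 3 was highest and WT replicate 3 lowest. The log2 fold change of *Flt3* was 0.67 (SE 0.16, limma adjusted *P* = 0.0407), and like *Dusp4* it lost its call without *Irf1-/-* replicate 2 (adjusted *P* = 0.0922), 3 (0.127), or 4 (0.0746) or WT replicate 3 (0.117). *Fgfr1* had a log2 fold change of 0.63 (SE 0.12, limma adjusted *P* = 0.0105), which lost its call without *Irf1-/-* replicate 2 (0.60, adjusted *P* = 0.0548) or WT replicate 3 (0.56, 0.0476).

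The ERK cascade itself, from adaptors to ERK and its scaffolds, had 21 genes, of which limma, edgeR, and DESeq2 called 0 and 3 had an unadjusted *P* under 0.05 in limma, compared to 16.5% of all tested genes. Their median log2 fold change was −0.075, with 15 below 0. Under quantile normalization the median was −0.046, with 13 below 0. Removal of WT replicate 4 moved the median to −0.157 and removal of WT replicate 2 to −0.049, and between 12 (without WT replicate 3) and 17 (without *Irf1-/-* replicate 3) were below 0 with 1 library left out. The adaptor gene *Shc1* had a log2 fold change of −0.015. *Gab1*, another adaptor gene, singled out after its values were seen, had a log2 fold change of 0.54 (SE 0.099, limma adjusted *P* = 0.00878), just under the fold change threshold. Without *Irf1-/-* replicate 3 (0.61) or WT replicate 2 (0.59) *Gab1* was called. Of 13 genes for RAS GTPase activating proteins and other brakes on RAS and receptors, limma, edgeR, and DESeq2 called 0, with 2 at an unadjusted *P* under 0.05 and a median log2 fold change of −0.049 (−0.022 without *Irf1-/-* replicate 2, −0.015 without WT replicate 2, −0.070 without WT replicate 3, −0.017 under quantile normalization, and −0.080 under median centring). The most abundant, *Rasa3* and *Pebp1*, had log2 fold changes of −0.025 and −0.078. The 2 at an unadjusted *P* under 0.05, singled out after their values were seen, were *Lrig1* (−1.04, limma adjusted *P* = 0.186) and *Dok2* (−0.29, 0.268).

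In the JNK and p38 cascades, 1 of 19 genes was called, higher in *Irf1-/-* HSCs (0.96% of all tested genes), and 4 had an unadjusted *P* under 0.05 (16.5% of all tested genes). *Mapk13*, which encodes p38δ, had 262.2, 237.6, and 228.4 normalized counts in *Irf1-/-* replicates 2, 3, and 4 and 81.5, 83.4, and 93.6 in WT replicates 2, 3, and 4. The genotypes of *Mapk13* were far apart relative to the spread within each, and its log2 fold change was 1.48 (SE 0.25, limma adjusted *P* = 0.0054). This call was kept in all 16 alternatives that were run for it. The median log2 fold change of the list was 0.062, and it was 0.022 with WT replicate 4 removed, 0.033 with *Irf1-/-* replicate 3 removed, 0.031 under median centring, and 0.096 under quantile normalization.

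Immediate-early genes, some of which ERK is known to induce, had 2 calls higher and 1 lower of 21 tested (0.96% and 0.954% of all tested genes). Of the 21, 5 had an unadjusted *P* under 0.05 in limma (16.5% of all tested genes). The median log2 fold change of the list was 0.12, which removal of WT replicate 3 moved to 0.20 and removal of WT replicate 4 to 0.072. *Egr1* had 6247, 5935, and 5471 normalized counts in *Irf1-/-* replicates 2, 3, and 4 and 2744, 3234, and 2778 in WT replicates 2, 3, and 4. All *Irf1-/-* libraries were well above the WT libraries, with a log2 fold change of 1.01 (SE 0.097, limma adjusted *P* = 3.89e-05), and without the intensity trend the adjusted *P* was 0.0511. Among the *Irf1-/-* libraries, *Egr1* was lowest in replicate 4, as was *Dusp4*. The highest *Irf1-/-* library and the lowest WT library of *Egr1* were both replicate 2, where those of *Dusp4* were both replicate 3. *Fosl2* had a log2 fold change of 0.90 (SE 0.21, limma adjusted *P* = 0.0368), a call lost without *Irf1-/-* replicate 2 (adjusted *P* = 0.148) or 4 (0.190) or WT replicate 2 (0.0751) or 3 (0.115). *Btg2* fell by 0.63 on the log2 scale (SE 0.16, limma adjusted *P* = 0.0460), a call lost without *Irf1-/-* replicate 3 (adjusted *P* = 0.121) or 4 (0.192) or WT replicate 2 (0.143) or 3 (0.181) and under quantile normalization (0.0521). *Ier3*, singled out after its values were seen, had a log2 fold change of 0.50 (limma adjusted *P* = 0.0285), below the fold change threshold, and was called without *Irf1-/-* replicate 3 (0.61).

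Of 7 genes outside the 10 that are used as readouts of ERK output (*Spry4* among them), limma and DESeq2 called 0. edgeR, which tested 6 of them, also called 0, and 0 had an unadjusted *P* under 0.05 in limma. The median log2 fold change of these readouts was 0.073 (−0.028 under quantile normalization, −0.0023 with a filter at a mean of 50, 0.044 without *Irf1-/-* replicate 2, −0.12 without *Irf1-/-* replicate 3, 0.11 without *Irf1-/-* replicate 4, and −0.053 without WT replicate 4), with 0.082 for *Etv5* and −0.12 for *Ccnd1*. Under median centring the median of the readouts was 0.042. Of 9 genes for ETS and SRF factors that ERK acts on and their repressors, the same 3 tools called 0, with 2 at an unadjusted *P* under 0.05 and a median of 0.11 (0.052 without *Irf1-/-* replicate 3). *Elk3* and *Etv3* had log2 fold changes of 0.28 and 0.19. *Ets1*, singled out after its values were seen, had a log2 fold change of 0.55 (SE 0.11, limma adjusted *P* = 0.0141), and was called without *Irf1-/-* replicate 4 (0.64). Of 4 genes for proteins that bind AU-rich elements and set the half-life of short-lived transcripts, the 3 tools called 0, with 1 at an unadjusted *P* under 0.05, a median of 0.12, and values of 0.25 for *Zfp36l2* and −0.22 for *Elavl1*.

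**Figure D3:**
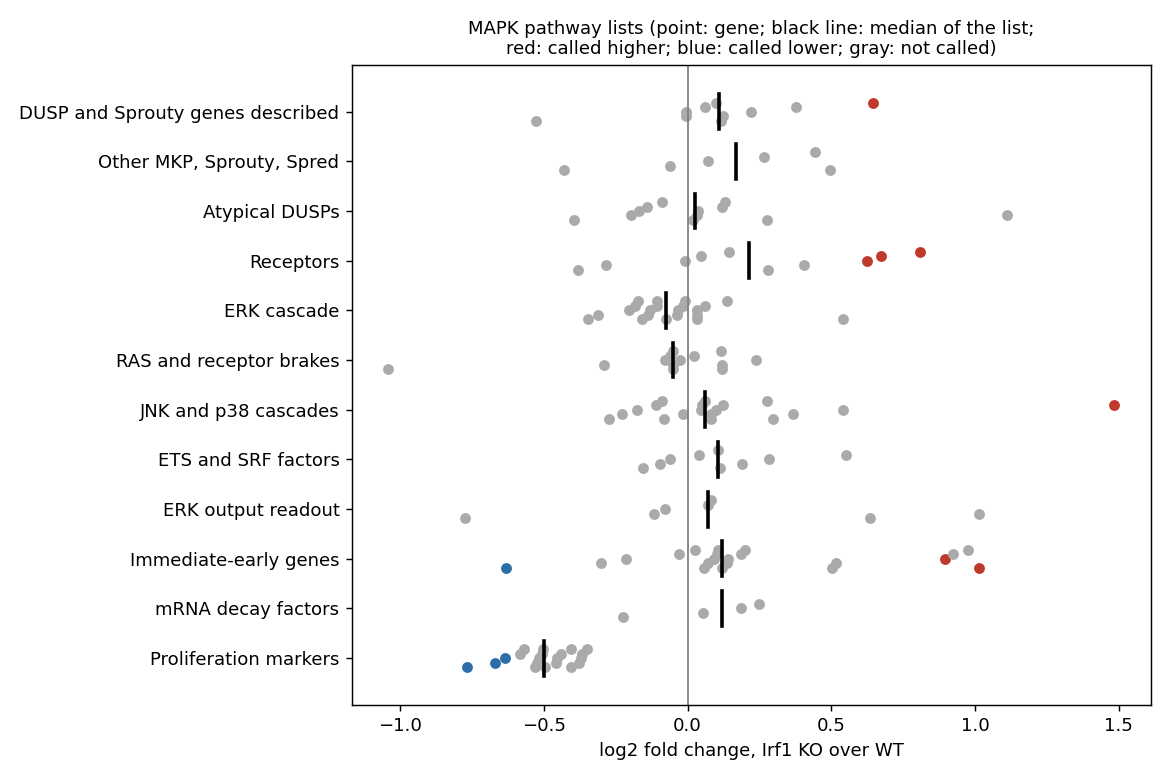
Log2 fold changes of *Irf1-/-* over WT HSCs for the DUSP and Sprouty genes and for lists of the MAPK pathway and of proliferation (points, genes; black lines, medians; red, called higher; blue, called lower; gray, not called). The medians of the MAPK lists lie between −0.075 and 0.21, and that of the 20 proliferation markers lies at −0.50.

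The libraries also differed in genes of other kinds. All 20 proliferation markers had negative log2 fold changes (median −0.50), and 3 were called lower (0.954% of all tested genes), *Top2a* (−0.77), *Mki67* (−0.67), and *Aurkb* (−0.63). All 20 had an unadjusted *P* under 0.05 (16.5% of all tested genes), and for 13 the *Irf1-/-* libraries lay below all WT libraries (9.27% of all tested genes). Without *Irf1-/-* replicate 4 or WT replicate 2 or 3 none of the 20 was called, and without WT replicate 4 10 were. *Birc5*, *Ccnb2*, and *Rrm2*, named after their values were seen, were called lower without *Irf1-/-* replicate 3 (−0.71, −0.67, and −0.64), and *Birc5* (−0.58, limma adjusted *P* = 0.0575) also under median centring (−0.61, adjusted *P* = 0.0378). The calls of *Aurkb* without *Irf1-/-* replicate 3 (adjusted *P* = 0.0565) and of *Mki67* without *Irf1-/-* replicate 2 (adjusted *P* = 0.125) were also lost. Their summed normalized counts, to which *Mcm6* gave the most, were 193246, 200749, and 162767 in *Irf1-/-* replicates 2, 3, and 4 and 262802, 290360, and 210089 in WT replicates 2, 3, and 4, and the part of this difference in that of *Dusp4* was not tested.

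Progenitor markers (*Cd48*, *Flt3*, *Cd34*, and *Il7r*, the last with at most 40.5 normalized counts) had 1 of 4 called higher, *Flt3* (0.96% of all tested genes), which was also the 1 at an unadjusted *P* under 0.05. Of these 4, the HSC gate stated in the paper used CD48 alone, taking cells without it. The sum of the 4 markers, mostly *Cd34*, was 20402, 26218, and 21285 normalized counts in *Irf1-/-* replicates 2, 3, and 4 and 19647, 17858, and 20036 in WT replicates 2, 3, and 4. In this sum *Irf1-/-* replicate 3 was highest and WT replicate 3 lowest, as for *Dusp4*. *Cd34* and *Flt3* each had this order. *Cd48* and *Il7r* did not, and among the *Irf1-/-* libraries both were lowest in replicate 3, with 279.1 and 6.91 normalized counts. Megakaryocyte markers had 2 of 5 called lower, where 0.954% of all tested genes were (*Pf4*, −1.11, and *Gp1bb*, −0.90), and 3 at an unadjusted *P* under 0.05, and without WT replicate 4 *Itga2b* was called lower as well (−0.67, adjusted *P* = 0.0449). Their sum, mostly *Itga2b*, ran the other way, with 40363, 24765, and 35754 normalized counts in *Irf1-/-* replicates 2, 3, and 4 and 47319, 60305, and 45164 in WT replicates 2, 3, and 4. The part of either marker list in the difference of *Dusp4* was not tested.

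Erythroid markers had 1 of 4 tested called lower, where 0.954% of all tested genes were, which was also the 1 at an unadjusted *P* under 0.05 (*Klf1*, −0.72, a call lost without *Irf1-/-* replicate 2, adjusted *P* = 0.0583, or 3, 0.0700, or WT replicate 2, 0.117, or 3, 0.109), with sums of 4327, 3089, and 3962 normalized counts in *Irf1-/-* and 5230, 5367, and 4286 in WT replicates 2, 3, and 4, the most from *Epor*. Of the 10 HSC markers, *Fgd5* was called higher (0.83; 0.96% of all tested genes were called higher) and, without WT replicate 2, *Procr* as well (0.58, adjusted *P* = 0.0149), and 7 had an unadjusted *P* under 0.05. The sort marker *Ly6a*, singled out after its values were seen, went the other way, with a log2 fold change of −0.43 (limma adjusted *P* = 0.0245), under the fold change threshold, and all *Irf1-/-* libraries below the WT libraries. The sums of the HSC markers overlapped between genotypes, with 202879, 226179, and 206318 normalized counts in *Irf1-/-* and 203301, 208121, and 189345 in WT replicates 2, 3, and 4. Endothelial and stromal markers had 0 of 6 called by limma, edgeR, or DESeq2 and 2 at an unadjusted *P* under 0.05, with sums, mostly *Emcn*, of 3169, 3348, and 3444 in *Irf1-/-* and 2087, 2251, and 2473 in WT replicates 2, 3, and 4, while *Cdh5* did not exceed 29.0 in any library. *Emcn*, singled out after its values were seen, had a log2 fold change of 0.576 (limma adjusted *P* = 0.0101), just under the fold change threshold, and was called under quantile normalization (0.59) and after removal of *Irf1-/-* replicate 2 (0.60), *Irf1-/-* replicate 4 (0.60), WT replicate 2 (0.61), or WT replicate 3 (0.61). *Kdr* (0.59, limma adjusted *P* = 0.132), chosen in the same way, was called without WT replicate 4 (0.83, adjusted *P* = 0.0155). B cell, T and NK cell, and myeloid markers had 0 called of 5, 3, and 7 tested by limma, 0 by edgeR and DESeq2, and 0, 1, and 0 at an unadjusted *P* under 0.05, and *Cd79b*, *Nkg7*, and *Itgam* were the most abundant of each. The parts of these lists in the values of the feedback genes were not tested.

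Since *Dusp4*, *Dusp5*, and *Spry1* lay on the same side of WT, the starts of the genes were read from RefSeq promoters of build GRCm38.p6 (250 bases before to 50 after the annotated start), of which 9 of the 10 genes had 1 each. *Dusp4* had no entry. The GC content of the 9 windows was between 57.0% and 72.3%, compared to a median of 52.7% over 32851 promoters. The letters searched on both strands, chosen with these sequences in view, were the cyclic AMP response element (TGACGTCA) and its shorter core TGACG, an AP-1 element (TGANTCA), an ETS element (CCGGAAGT), an interferon regulatory factor element (GAAANNGAA), an EGR element (GCGNGGGCG), and the CArG box, the element of SRF. A match is a description of letters, not a site or a cause.

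The window of *Dusp5*, on the plus strand of chr19:53528895-53529194, held 2 adjoining CArG boxes at bases 169 to 178 and 179 to 188, where 1.63% of all promoters held at least 1. It is shown with these boxes in capitals, beside the window of *Spry1* (chr3:37639697-37639996, plus strand), the other gene without overlap, which held none of the elements searched. The window of *Dusp1* (chr17:26508423-26508722, minus strand), whose genotypes did overlap, is shown for comparison, with its full cyclic AMP response element in capitals (bases 108 to 115). All are given 5′ to 3′ on the strand of the gene.
Dusp5: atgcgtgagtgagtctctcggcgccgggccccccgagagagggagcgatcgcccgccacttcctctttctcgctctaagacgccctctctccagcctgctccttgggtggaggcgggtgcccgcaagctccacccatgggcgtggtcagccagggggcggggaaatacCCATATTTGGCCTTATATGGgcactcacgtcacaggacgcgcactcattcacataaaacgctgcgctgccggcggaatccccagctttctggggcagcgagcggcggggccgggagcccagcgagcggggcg
Spry1: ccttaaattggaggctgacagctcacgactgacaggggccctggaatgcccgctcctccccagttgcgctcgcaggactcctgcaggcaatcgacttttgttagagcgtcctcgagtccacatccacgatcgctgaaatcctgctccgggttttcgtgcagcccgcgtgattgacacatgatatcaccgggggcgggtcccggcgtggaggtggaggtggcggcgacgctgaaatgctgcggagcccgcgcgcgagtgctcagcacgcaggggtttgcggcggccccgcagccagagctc
Dusp1: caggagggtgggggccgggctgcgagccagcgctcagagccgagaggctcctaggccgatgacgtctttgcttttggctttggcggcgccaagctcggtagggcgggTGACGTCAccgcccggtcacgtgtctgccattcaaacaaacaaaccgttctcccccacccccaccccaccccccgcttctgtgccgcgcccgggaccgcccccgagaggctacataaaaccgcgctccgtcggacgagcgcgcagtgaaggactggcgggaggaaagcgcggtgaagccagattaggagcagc

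The full cyclic AMP response element was found in the window of *Dusp1* alone among the 9, and in 1.79% of all promoters. Its shorter core, which overlaps it, was found in 4 of the 9 (*Dusp1*, *Dusp2*, *Dusp5*, and *Spred2*), compared to 20.8% of all promoters. The EGR element was found in *Dusp2* alone among the 9, and in 5.55% of all promoters. The AP-1 element (7.81% of all promoters), the ETS element (3.89%), and the interferon regulatory factor element (8.56%) were in none of the 9 windows, which says only that these letters are not there.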

How the data were processed

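HSCs of 3 *Irf1-/-* and 3 WT mice were grouped by their labels. The authors amplified cDNA with SMART-Seq v4, without molecular identifiers, and used Trim Galore!, HISAT2 (mm39 in the submitters' processing notes), and Htseq-count. The deposited signal holds gene counts scaled by a DESeq2 size factor for each library. Annotation, strand setting, and versions are not given in the sources used here, so reads of overlapping or antisense genes could be counted for either gene. Divided by the worth of 1 read, 100% of values came out whole (within 0.01 reads), and these reads entered the count models.

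Genes whose normalized counts averaged at least 10 were tested with limma 3.58.1 in R 4.3.3 (lmFit, eBayes with trend) on log2(value + 1), with Benjamini-Hochberg adjustment over all tested genes. Count models were alternatives, since the values are scaled. On the recovered reads edgeR 4.0.16 (quasi-likelihood test, TMM) called 162 genes higher and 161 lower, and DESeq2 1.42.0 called 299 and 211. Other alternatives covered the pseudocount, the filter, the trend, quantile normalization, median centring, a block for the replicate number, and each library left out in turn. No library was a copy of another of its genotype (chi-square per gene of at least 16.0). Reads are not independent molecules, so read numbers speak for counting error only. Transcript lengths were matched by symbol or synonym. Figures were drawn with matplotlib 3.10.9.

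The named genes are the 10 members, the tested genes of the same families, *Irf1*, the called genes or the most abundant examples of each pathway list, and the genes most correlated with the members or with *Dusp4*. Some genes that this rule covers are not reported here. Members and lists were chosen with earlier results of these data known.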

Additional observations from a re-analysis of the deposited data

How the results depend on the processing

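The call of *Dusp4* and the number of called genes depended most on limma's intensity trend and on single mice. With no trend, 0 of the 10 DUSP and Sprouty genes were called higher, and over all genes 7 were called higher and 33 lower. Of the called genes named, *Mapk13* alone was called without the trend. With 1 library left out, between 0 and 1 of the 10 genes were called higher, and over all genes between 83 and 304 were called higher and between 105 and 265 lower. DESeq2 called 299 genes higher, and an adjusted *P* under 0.05 alone, with no fold change threshold, gave 301 genes higher and 260 lower. The other counts were within 1.5 times those reported, and 0 of the 10 genes were called lower in any alternative.

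The labels do not say whether equal replicate numbers mark paired mice. Deviations from the genotype means correlated by −0.094, 0.246, and 0.147 for the same numbers 2, 3, and 4. Not every library correlated best with its own number, but with 3 mice per genotype this cannot show whether mice were paired. With the number as a replicate block, 1 of the 10 genes was called higher (*Dusp4*, adjusted *P* = 0.0476), and over all genes 219 were called higher and 196 lower. *Kdr* (adjusted *P* = 0.0324) and *Birc5* (0.00879) were also called with the block, and *Birc5* with a filter at a mean of 50 (0.0483).

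Over 159 recalculated fold changes of the 10 genes, 144 kept direction and call, 5 (all of *Dusp4*) lost the call, and 10 turned, none of them a called value. Under quantile normalization the log2 fold changes that turned were those of *Dusp1* (0.029), *Spred1* (0.038), *Spry4* (−0.028), *Shc1* (0.026), and *Rasa3* (0.063). With 1 library left out, the values that turned ranged from −0.17 to 0.16 for *Dusp1*, from −0.012 to 0.19 for *Dusp10*, from −0.039 to 0.027 for *Spred1*, from −0.15 to 0.025 for *Dusp7*, from −1.40 to 0.41 for *Spry3*, from −0.20 to 0.38 for *Spry4*, from −0.093 to 0.11 for *Dusp11*, from −0.058 to 0.024 for *Shc1*, and from −0.098 to 0.12 for *Rasa3*. The causes were not tested. Depth was low for *Spry3*, with between 4 and 81 reads per library, and for *Spry2*, with between 21 and 59.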
